A study of Mus musculus with 3 samples.

Results

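A group of mouse lung lymphocytes that carry transcript of the chemokine receptor Ccr10 and no detected transcript of the CD3 epsilon and delta chains was described here, 79 cells of 5164. Cells were taken from 2 of 3 single-cell libraries, one labelled IL-18R- CD103- GFP- and one that pools IL-18R+ sorts. A cell was a member with at least 1 Ccr10 UMI (unique molecular identifier, one captured transcript), no UMI of Cd3e or Cd3d, under 2 UMIs of the gamma delta T cell receptor chain Trdc, and no UMI of the endothelial genes Cldn5 and Cdh5 or the myeloid gene Lyz2. The pool held 77 members and the second library held 2. The members were therefore chosen on the expression of 7 genes, and the values of those genes describe the choice.

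The lymphocytes came from perfused, enzymatically digested lungs of GFI1B-GFP mice, in which a fluorescent protein reports the zinc finger repressor GFI1B, and every sort began from live cells that were CD45+, lineage-negative, CD90.2+ and IL-7R+. The IL-18R+ pool joined cells sorted as IL-18R+ CD103+ GFP- and cells sorted as IL-18R+ CD103- GFP+, with no key to which barcode came from which. The other libraries were sorted as IL-18R- CD103- GFP- and as IL-18R- ST2+, ST2 being the IL-33 receptor chain encoded by Il1rl1. The 3 groups had 1 library each, with no replicates, so differences between cells or libraries were described by size and counting interval and none was tested. The sources used here do not give mouse number, age, sex or lineage antibodies.

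Innate lymphoid cells are lymphocytes without rearranged antigen receptors. In the lung, group 2 innate lymphoid cells (ILC2) respond to IL-33 and IL-25 with IL-5 and IL-13, and IL-18R+ ST2-negative cells include precursors and cells with features of several ILC groups. CCR10 is the receptor for the epithelial chemokines CCL27 and CCL28. CD103, the integrin alpha chain encoded by Itgae, pairs with beta 7 and binds E-cadherin on epithelium.

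The libraries kept 1659, 1883 and 1622 cells that had 500 or more genes and no more than 10% of UMIs from mitochondrial genes, with median depths of 4932, 4772 and 4568 UMIs per cell in the order given above. The library labelled IL-18R- CD103- GFP- contained Il18r1 transcript despite its label. The pool and that library shared 1 barcode sequence, which belonged to no member. Pool members had a median of 5611 UMIs (2495 to 19454) and 544641 UMIs in total. The comparison cells were 230 other pool cells under the same limits with no Ccr10 UMI (median 5556 UMIs), called other CD3-negative cells here, and 1511 cells of the IL-18R- ST2+ library with an Il1rl1 UMI (median 4598 UMIs), called ST2+ ILC2. All intervals are 95% limits, Clopper-Pearson for shares and Poisson-based for levels and ratios, and cover counting error only.

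Members made up 4.64% of pool cells (3.68 to 5.77%) and 0.106% of the second library (0.0129 to 0.383%). Among cells without CD3 under the same limits, they were 25.1% in the pool (77 of 307) and 1.01% in the second library (2 of 199). In the IL-18R- ST2+ library 1 of 1622 cells met the rule, and that cell had 1 Ccr10 UMI, 4 of Il1rl1 and 6 of Gata3. Cells with these transcripts were thus almost all in the IL-18R+ pool.

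Transcripts that the rule did not use, and counts of CD3, were set beside the label of innate lymphocytes. Il7r, Ptprc, Thy1 and Il18r1 encode markers of the sort gates, which CD3+ cells of the pool passed too. They therefore cannot tell innate cells from T cells. Il7r, the IL-7 receptor chain used in the sort, was detected in 100% of pool members, Ptprc (CD45) in 97.4% and Thy1 (CD90) in 70.1%. Il18r1, the sorted IL-18 receptor chain, was detected in 94.8% of members, with 0, 4 and 15 UMIs per cell at the lowest, median and highest. Foxp3, Cd4, Cd8a, Cd79a and Jchain had no UMI in members. The sorted surface markers were thus present as transcripts, and these chosen genes of CD4 and CD8 T cells and of B and plasma cells were at 0. Most CD3+ pool cells carried Trdc (856 of 1211 with at least 2 UMIs), so Cd4 and Cd8a at 0 speak only for CD4 and CD8 T cells. Other B and plasma cell genes, Cd79b, Ighm and Xbp1 among them, did have UMIs in members.

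Of 17 T cell genes, 8 were detected in members with a summed level of 2110 UPM (UMIs per 1000000 UMIs of the class), beside 1818 UPM in other CD3-negative cells, 1497 UPM in ST2+ ILC2 and 6649 UPM in pool cells with at least 2 UMIs of Cd3e and Cd3d. Cd3e and Cd3d were 0 by the rule, and Cd247, Cd4, Cd8a, Cd8b1, Cd5, Cd6 and Cd40lg were also at 0. Cd247, the CD3 zeta chain, was found in 58.1% of CD3+ pool cells. The list's level in members came largely from the T cell receptor beta constant genes Trbc1, detected in 89.6% of members, and Trbc2, in 76.6%. In ST2+ ILC2, Trbc1 was detected in 71.7% and Trbc2 in 75.2% of cells, so that these genes do not separate members from ILC2. Cd3g, the CD3 gamma chain, was detected in 16.9% of members, 21.9% of ST2+ ILC2 and 99.8% of CD3+ pool cells, and Trac, the alpha constant gene, in 19.5% of members. In other CD3-negative cells Cd3g was detected in 8.26% and Trac in 10.4%, and the level of Cd3g was 66.1 UPM in members and 29.6 UPM there (ratio 2.24, 1.40 to 3.56). Gamma delta receptor transcripts were present too, with Tcrg-C4 in 15 and Trdv4 in 10 of the 22 members with Mki67. Among the 16 members with Fcer1g or Tyrobp, Tcrg-C4 was in 10 and Trdv4 in 1. Of 4 gamma delta T cell genes that reached 20 UPM in either class, 0 were 2-fold higher in members than in other CD3-negative cells and 2 were lower. Over all measured genes 3.98% were higher and 10% lower, so a count over 4 genes says little.

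Missed CD3 was gauged in pool cells with Trdc, which is itself a gene of the rule. Of 871 pool cells with at least 2 Trdc UMIs, 7 had no UMI of Cd3e or Cd3d (0.804%, 0.324 to 1.65%), and the median was 9 UMIs. The rule leaves such cells out, so this share does not hold for T cells with less Trdc, which could enter the members. Cd3g reached 2 or more UMIs in 10 members, with 8 at the highest. Of 131 pool cells with Ccr10, 87 had no such UMI (66.4%, 57.6 to 74.4%), 6 had 1 and 38 had at least 2. Among the 37 pool cells with at least 5 Ccr10 UMIs, 35 had none, 2 had 1 and 0 had more. High Ccr10 counts therefore lay in cells without CD3, while some cells with CD3 also carried Ccr10 at low counts.

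Of the 54 pool cells with Ccr10 outside the rule, 38 had at least 2 CD3 UMIs (26 of them with at least 2 Trdc UMIs), 6 had 1, and 10 had none but failed another limit. The last 10 comprised 3 cells with Trdc and 7 with Cldn5, Cdh5 or Lyz2. Ccr10 was found in 3.14% of CD3+ pool cells (2.23 to 4.28%; median depth 4868 UMIs), in 3.04% of those with Trdc, in 0 of 21 Cd79a+ cells, which allows a share of up to 16.1%, in 0.611% of CD3+ cells of the second library and in 0.132% of ST2+ ILC2. Ccr10 transcript was not spread evenly over cell types, and in CD3+ cells it differed between libraries.

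Per cell, pool members carried from 1 to 27 Ccr10 UMIs, with a median of 3. Just inside the rule, 22 members had 1 UMI and 5 had 2, while 50 had 3 or more and 29 had at least 5. Members with 1 Ccr10 UMI had Itgae in 59.1%, Cd7 in 63.6%, Ass1 in 36.4%, Ccr4 in 18.2% and Cntnap1 in 36.4% of cells. Just outside the rule on the side of Ccr10, 31 CD3-negative cells with Itgae and no Ccr10 UMI had Cd7 in 22.6%, Ass1 in 22.6%, Ccr4 in 19.4% and Cntnap1 in 3.23% of cells. Just outside on the side of CD3, the 6 cells with Ccr10 and 1 CD3 UMI were deep (median 14188 UMIs). They had Cd7 in 6 cells, Ass1 in 4, Cntnap1 in 2, Ccr4 in 2 and Itgae in 1. The 38 CD3+ cells with Ccr10 had Itgae in 50%, Cd7 in 57.9%, Cntnap1 in 21.1% and Ccr4 in 2.63% of cells.

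**Figure D1:**
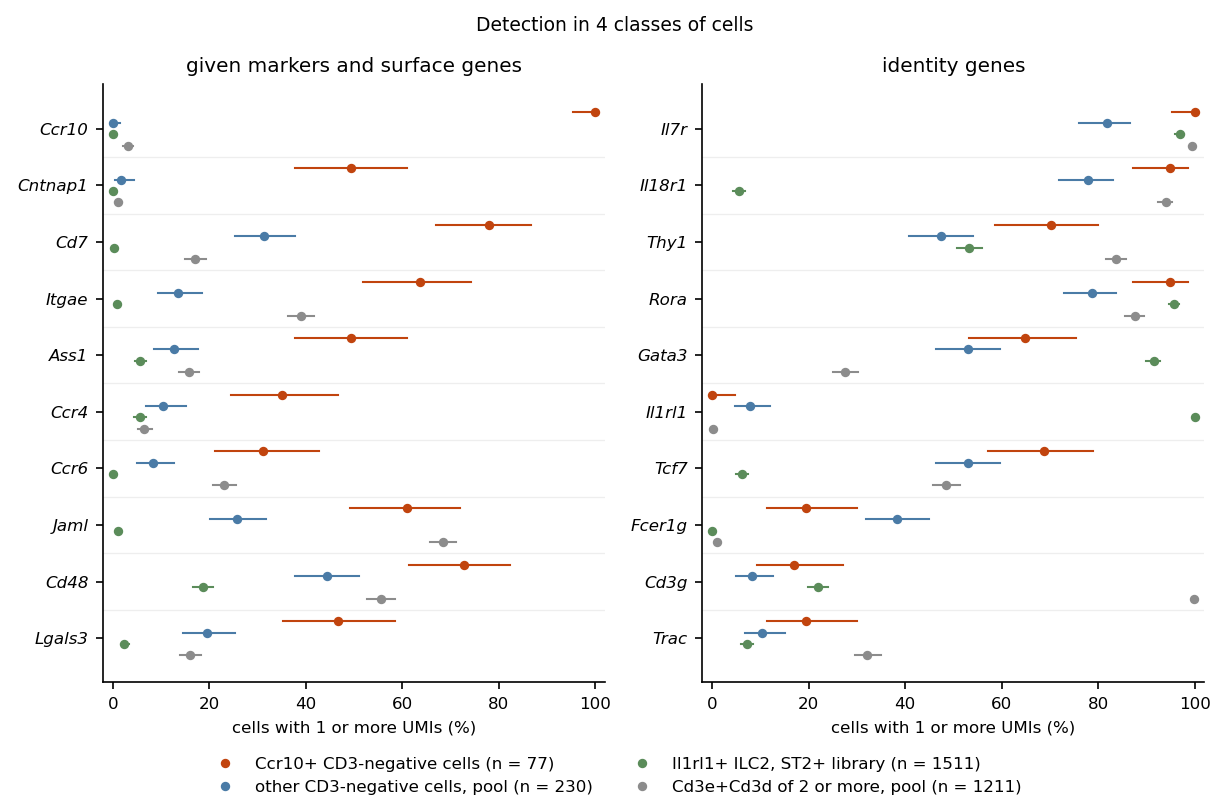
Percent of cells with at least 1 UMI of 20 genes in pool members (77 cells), other CD3-negative pool cells (230), ST2+ ILC2 (1511) and CD3+ pool cells (1211); bars show 95% Clopper-Pearson intervals. Cntnap1 was found in 49.4% of members and in under 2% of each other class, while Il18r1 was shared with the pool and Il1rl1 was found in ST2+ ILC2.

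The markers that go with Ccr10 were present together in most members. The genes Itgae, Cd7, Ass1, Ccr4 and Cntnap1 were proposed as markers from these same data, so their values are a description of the cells. At least 2 of the 5 were detected in 60 of 77 members (77.9%) and in 31 of 230 other CD3-negative cells (13.5%). All 5 were detected in 11 members and 0 other CD3-negative cells, and none of the 5 in 6 members and 111 other CD3-negative cells.

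Itgae was detected in 63.6% of members, with 0, 1 and 8 UMIs per cell at the lowest, median and highest. It was found in 13.5% of other CD3-negative cells, 0.86% of ST2+ ILC2 and 39% of CD3+ pool cells. Its level was 187.3 UPM in members and 36.9 UPM in other CD3-negative cells, a ratio of 5.07 (3.62 to 7.17). Itgae lies at chr11:73090583-73147446 on the plus strand of mm10 (GENCODE M21). Its partner chain Itgb7 was 1.74 times as high in members, under the ratio of 2 used here.

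Cd7, a surface glycoprotein of early T and NK lineage cells, was the most abundant of the 5, with 0, 3 and 21 UMIs per cell and detection in 77.9% of members. Its level was 635.3 UPM in members, 182.7 UPM in other CD3-negative cells, 62.1 UPM in CD3+ pool cells and 0.672 UPM in ST2+ ILC2. The ratio to other CD3-negative cells was 3.48 (2.96 to 4.09) and that to ST2+ ILC2, which held 5 UMIs, was 945.4 (401.2 to 2930). Members thus lay above every one of these classes in Cd7. Cd7 lies at chr11:121036747-121039418 on the minus strand.

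Ass1 encodes argininosuccinate synthase, which makes the precursor of arginine from citrulline. It was detected in 49.4% of members, with 0, 0 and 8 UMIs per cell, and had 174.4 UPM, beside 36.9 UPM in other CD3-negative cells (ratio 4.72, 3.35 to 6.71), 38.5 UPM in CD3+ pool cells and 12.6 UPM in ST2+ ILC2. Arg1, which breaks arginine down, went the other way at 58.8 UPM in members, 118.9 UPM in other CD3-negative cells (2.02 times as high there) and 243.7 UPM in ST2+ ILC2 (4.15 times as high there). Arg1's difference inside the pool shrank to 1.32 times when cells with Mki67 were left out. Of 6 measured genes of arginine and amino acid handling, Ass1 was higher and Arg1 lower in members than in other CD3-negative cells, and 4 were neither. Ass1 lies at chr2:31470207-31520672 on the plus strand.

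Ccr4, the receptor for CCL17 and CCL22, was detected in 35.1% of members, with 0, 0 and 3 UMIs per cell. Its level was 75.3 UPM in members, 20.8 UPM in other CD3-negative cells (ratio 3.62, 2.21 to 5.96), 17.5 UPM in CD3+ pool cells and 13.7 UPM in ST2+ ILC2 (ratio 5.49, 3.73 to 7.96). Ccr4 lies at chr9:114490316-114504916 on the minus strand. Ccr4 was thus above all 3 other classes, although fewer members carried it than Cd7 or Itgae.

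Cntnap1 encodes a contactin-associated protein known from the axon's paranodal junction. It was detected in 49.4% of members, with 0, 0 and 6 UMIs per cell, and had 74 UMIs in members (135.9 UPM), 4 in other CD3-negative cells (2.69 UPM; ratio 50.6, 18.9 to 190.5) and 1 in ST2+ ILC2 (ratio 1011, 176 to 40465). On reads thinned to 2000 UMIs per cell the ratio to other CD3-negative cells was 19.7. On full counts it was the gene, after Ccr10 itself, with the highest ratio to other CD3-negative cells.

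Cntnap1 is the neighbour of Ccr10. Ccr10 lies at chr11:101172997-101175443 on the minus strand, and Cntnap1 at chr11:101170523-101190724 on the plus strand of mm10. The main protein-coding Cntnap1 transcript spans chr11:101176041-101190724, starts 598 bases from the start of Ccr10 in the opposite direction and shares 0 exon bases with it. A processed Cntnap1 transcript at chr11:101170523-101178316 spans Ccr10. The sources used here do not say whether counting used strand, so reads from overlapping stretches of the genes may not be told apart.

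Of 68 pool cells with Cntnap1, 56 had Ccr10 (82.4%). Cntnap1 was found in 42.7% of the 131 pool cells with Ccr10 and in 0.785% of the 1528 without. In CD3-negative cells it was found in 1.74% of cells with no Ccr10 UMI, 36.4% with 1, 42.3% with 2 to 4 and 65.5% with at least 5. In CD3+ pool cells it was found in 0.426% with no Ccr10 UMI, 23.8% with 1 and 17.6% with 2 to 4. Cntnap1 therefore followed Ccr10 in cells with and without CD3. Over the 77 members, per-cell values of Ccr10 and Cntnap1 had a Pearson r of 0.178 (cells of 1 library with unequal depth). These values were not raw UMI counts, so that r does not describe how the counts go together.

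Other genes within 200 kb of Ccr10 were mostly near equal between members and other CD3-negative cells. Ratios were 1.28 (0.81 to 2.00) for Ezh1, 1.34 for Becn1, 0.868 for Coa3, 0.697 for Psme3, 0.87 for Mlx and 0.684 for Retreg3. Plekhh3, whose gene lies 1.65 kb away, had 14 UMIs in members and 5 in other CD3-negative cells (ratio 7.66, 2.61 to 27.2), and Tubg1, a gamma tubulin gene 46.6 kb away, had a ratio of 3.83 (1.88 to 7.98). These genes were named after their values were seen.

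**Figure D2:**
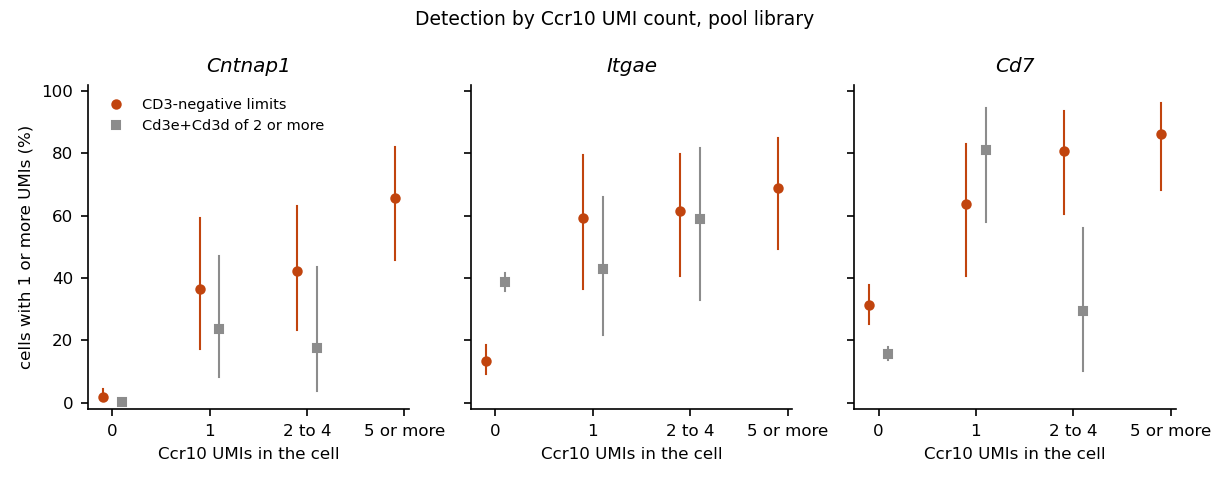
Percent of pool cells with a UMI of Cntnap1, Itgae and Cd7 by the number of Ccr10 UMIs in the cell (0, 1, 2 to 4, 5 or more), for CD3-negative cells and for cells with at least 2 CD3 UMIs, with 95% Clopper-Pearson bars. Cntnap1 went from 1.74% of CD3-negative cells without Ccr10 to 65.5% of those with at least 5 UMIs.

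Against other CD3-negative cells of the same library, members further differed in some receptors for chemokines and sphingosine, some adhesion genes and some proliferation genes. A gene was measured when either class reached 20 UPM and was called higher or lower at a ratio of at least 2, with sums raised to a floor of 3 UMIs. Of 6229 measured genes, 248 were higher in members (3.98%) and 623 lower (10%), and the median log2 ratio was -0.09. The members were chosen on these cells, so the counts describe how the classes differ. On thinned counts 515 genes were higher and 492 lower, so the excess of lower genes was not seen after thinning.

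Of 14 measured homing receptors, Ccr10, Ccr4 and Ccr6 were higher, 3 were lower, Ccr9 and Ccr7 among them, and 8 neither (median log2 0.328). Ccr10 was higher by the rule itself, and this count and median include it. Ccr6, the receptor for CCL20, was detected in 31.2% of members, with 0, 0 and 6 UMIs per cell, and had a ratio of 3.55 (2.15 to 5.92). Its level of 71.6 UPM was close to that of CD3+ pool cells (66.7 UPM; ratio 1.07, 0.752 to 1.49), and it had 0 UMIs in ST2+ ILC2. Ccr9, the gut-homing receptor, had 0 UMIs in members and 33 in other CD3-negative cells, at least 4.02-fold lower, but when cells with Cd3g, Trac or Trdc were left out the level of the other cells was below that of 3 UMIs in members, and no direction could be read. The lymph node homing receptor Ccr7 was 2.2 times as high in other CD3-negative cells (1.31 to 3.91).

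Of 15 measured adhesion and retention genes, Itgae, Itgb1, S1pr1 and S1pr4 were higher in members, Itga4 was lower and 10 were neither (median log2 0.133). S1pr1, the sphingosine phosphate receptor that guides lymphocytes out of tissue, had 216.7 UPM in members and 92 UPM in other CD3-negative cells (ratio 2.36, 1.82 to 3.03). S1pr4 had a ratio of 2.65 (1.98 to 3.55), or 1.71 on thinned counts, and Itgb1 2.12. Itga4, the alpha 4 integrin chain, had 15 UMIs in members and 268 in other CD3-negative cells, where its level was 6.54 times as high (3.89 to 11.8). Members thus held Itgae with little Itga4.

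Among surface and cytosolic genes outside these lists, Jaml, an adhesion receptor of gamma delta T cells and other leukocytes, was detected in 61% of members with 0, 1 and 8 UMIs per cell and had a ratio of 3.76 (2.86 to 4.97). Its level in CD3+ pool cells was higher still, at 299.1 UPM beside 235 UPM in members. Cd48, a ligand of the receptor 2B4, had a ratio of 3.82 (3.13 to 4.68), and Ms4a6b, a membrane protein of lymphocytes, 3.81 (2.83 to 5.15). Lgals3 (galectin 3) had a ratio of 3.94 (3.15 to 4.94), or 2.33 when cells with Mki67 were left out. Ifi27l2a, an interferon-responsive gene, had a ratio of 5.81, but 1 cell held 28% of its UMIs and the ratio was 2.4 without cells with Mki67.

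Of 11 measured ILC2 genes, Il13, Il9r and Bcl11b were higher in members, Il1rl1 and Arg1 lower and 6 neither (median log2 0.113). Gata3, the ILC2 transcription factor, was detected in 64.9% of members with 0, 1 and 17 UMIs per cell, and its level was like that of other CD3-negative cells (358 and 317 UPM; ratio 1.13, 0.951 to 1.34). Il13 had 42 UMIs in members and 51 in other CD3-negative cells (ratio 2.25, 1.46 to 3.46), but 1.06 when cells with Mki67 were left out. Il9r, the IL-9 receptor chain, was found in 22.1% of members and had a ratio of 2.73 (1.49 to 5.03). Bcl11b, a zinc finger factor of T cells and ILC2, had a ratio of 2.23, and Il1rl1 had 0 UMIs in members beside 36 in other CD3-negative cells, at least 4.39-fold lower, but on thinned counts those cells were below the level of 3 UMIs in members.

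Of 14 measured ILC1 and NK genes, Gzma, Gzmb and Prf1 were lower in members and 11 neither (median log2 -0.536). The granzyme gene Gzma had 1 UMI in members and 383 in other CD3-negative cells (140.1 times as high there, 25 to 5548), although it was found in only 3.04% of those cells. The granzyme gene Gzmb had 3 and 88 UMIs (10.7 times as high there, 3.55 to 53.0), and Prf1 (perforin) 3 and 43 (5.24 times as high there, 1.68 to 26.4). The receptor gene Klrk1 (NKG2D) was found in 67.5% of members and near equal (ratio 1.22).

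Of 16 measured ILC progenitor genes, 0 were higher, 7 were lower and 9 neither (median log2 -0.519). Sox4 was 3.97 times as high in other CD3-negative cells (2.56 to 6.46), Zbtb16, which encodes the precursor factor PLZF, 2.95 times (1.72 to 5.44), Batf3 3.72 times (2.00 to 7.67) and Pdcd1 (PD-1) 2.81 times (2.01 to 4.04). Tcf7, another precursor factor, was found in 68.8% of members with 0, 1 and 20 UMIs per cell and was near equal (ratio 1.07). Without the 16 members that carried Fcer1g or Tyrobp these gaps were larger, with Sox4 16.1 times, Zbtb16 10.8 times, Batf3 10 times and Pdcd1 8.06 times as high in other CD3-negative cells. Only members were filtered in this way. The comparison cells kept theirs, with Fcer1g in 81 of the 199 without Itgae and 7 of the 31 with it. The larger gaps therefore do not compare like cells on both sides. Of 11 ILC3 genes, Ccr6 was higher and Il22, Il1r1, Kit and Tnfsf11 lower. Il22 had 0 UMIs in members and 147 in other CD3-negative cells, at least 17.9-fold lower. Tnfsf11 (RANKL) was 5.71 times as high in other CD3-negative cells (3.45 to 10.2).

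Of 13 measured immediate early and heat shock genes, 5 were lower in members, 0 higher and 8 neither (median log2 -0.759). Fos was 2.67 times as high in other CD3-negative cells (2.32 to 3.07), Jun 4.06 times (3.09 to 5.44), Egr1 3.95 times (2.92 to 5.47) and Atf3 5.06 times (3.76 to 6.96). The chemokine gene Cxcl2 was 19.1 times as high there (10.3 to 40.0) and Calca, which encodes the neuropeptide CGRP, 6.26 times (4.18 to 9.79). Both classes came from 1 library.

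The comparison cells were not one type. B and plasma cell genes summed to 108.3 UPM in members and 660.2 UPM in other CD3-negative cells, myeloid genes to 497.6 and 2193 UPM, and stromal and epithelial genes to 33.1 and 234.4 UPM. Of the large gaps, Cd79a, Ebf1, Ms4a1, Col1a1, Col1a2, Col3a1, Dcn, S100a9 and Cd14 had 0 UMIs in members, and S100a8 had 1. Against the 191 other CD3-negative cells with Ptprc and without B cell and stromal genes, 264 genes were higher and 507 lower. Ighd and Id3 then turned direction in sign. The value of Id3 equals that of the floor of 3 UMIs in both classes (5.51 UPM in members, 2.29 UPM in the narrowed cells). No direction could therefore be read for Id3, and the part of the floor in the turn of Ighd was not tested. Fos was no longer 2-fold apart (1.81 times as high in the narrowed cells) and Egr1 was 2.29 times as high in them. Mef2c, a B cell and myeloid factor, was still 13.9 times as high in them.

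Antigen presentation genes turned with that choice. Cd74, the class II invariant chain, was detected in 38 of 77 members with 0, 0 and 35 UMIs per cell. Its level of 569.2 UPM in members was near that of all other CD3-negative cells (679 UPM) but 4.13 times (3.42 to 4.98) the 138 UPM of the 191 narrowed cells. H2-Aa, a class II chain, was 2.55 times as high in all other CD3-negative cells yet 2.96 times (1.95 to 4.51) as high in members as in the narrowed cells, and H2-Ab1 went from 2.62 times as high in the comparison cells to 2.79 times as high in members. These genes were named after their values were seen.

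Against 2 narrower sets of pool cells, the marker genes other than Cd7 remained at least 2-fold higher in members. In the 29 other CD3-negative cells with Ncr1, which encodes the NK receptor NKp46, the ratio was 9.52 for Itgae, 4.92 for Ass1, 19.1 for Ccr4 (3.25 to 774; 1 UMI in those cells) and 1.97 for Cd7, and Cntnap1 had 0 UMIs. In the 96 with Il18r1 and Tcf7 and no Ncr1, it was 7.76 for Itgae, 5.59 for Ass1, 2.65 for Ccr4, 2.83 for Cd7 and 47.9 for Cntnap1 (12.8 to 403; 2 UMIs in those cells). Icos, a costimulatory receptor, was 7.4 times as high in members as in the Ncr1+ cells (4.86 to 11.8) and 1.39 times as high as in the other set. Median depths of these sets were 7785 and 6683 UMIs.

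**Figure D3:**
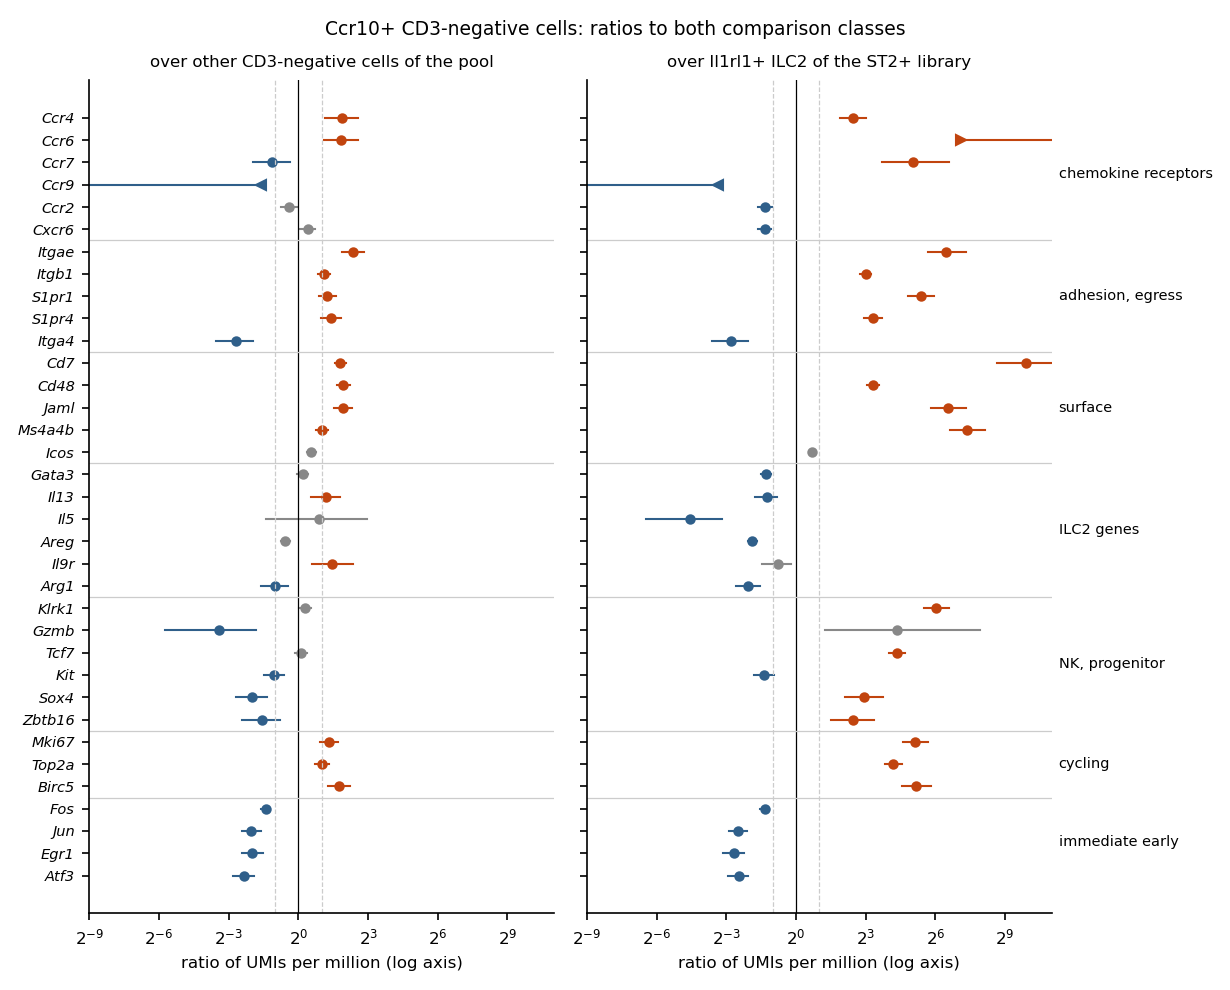
Ratio of the level in pool members to that in other CD3-negative cells and in ST2+ ILC2 on a log axis, with 95% counting intervals; red is higher, blue lower and grey neither by the size rule, dashed lines mark ratios of 2 and 0.5, and a triangle marks an interval bound where 1 class had 0 UMIs. Ccr4, Itgae and Cd7 lie to the right against both classes, while Gata3 lies near 1 against other CD3-negative cells and to the left against ST2+ ILC2.

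Against ST2+ ILC2, members had lower levels of 11 of 16 measured ILC2 genes and higher levels of several receptor and adhesion genes. Class and library were the same split, so a difference between the cells and one between the libraries cannot be told apart. Of 5902 measured genes, 989 were higher in members (16.8%) and 490 lower (8.3%), with a median log2 ratio of 0.271. Scaling by the median of ratios moved all genes by 0.273 on the log2 scale, and 659 were then higher and 706 lower, so that the share higher among called genes was 48.3% in place of 66.9%.

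Of 16 measured ILC2 genes, 0 were higher in members, 11 lower and 5 neither (median log2 -1.97). Gata3 was detected in 91.5% of ST2+ ILC2 and had 879.2 UPM there, 2.46 times the level in members (2.13 to 2.85). Il5, which drives eosinophils, was 23.6 times as high in ST2+ ILC2, Il13 2.42 times (1.78 to 3.37), Areg (amphiregulin) 3.68 times and Csf2 (GM-CSF) 43.5 times (22.9 to 95.1). The chemokine gene Ccl1 had 0 UMIs in members and 7862 in ST2+ ILC2, at least 192-fold lower. Il2ra, the IL-2 receptor alpha chain, was 8.14 times as high in ST2+ ILC2 (5.36 to 13.0). Il1rl1 had 0 UMIs in members and selected the ILC2 class.

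Some ILC2 genes were shared. Rora, a factor required for ILC2, was detected in 94.8% of members and 95.8% of ST2+ ILC2 (ratio 0.751), Bcl11b had a ratio of 0.822, Il9r 0.577 and Il17rb, the IL-25 receptor chain, 0.618, with detection in 29.9% of members. Other genes found in ST2+ ILC2 and nearly absent from members were Hs3st1, a heparan sulfate sulfotransferase, at 0 and 2722 UMIs, at least 66.4-fold lower, Slc7a8, an amino acid transporter, at 1 and 2130 UMIs (156 times as high in ILC2, 28.0 to 6161) and Il10ra, an IL-10 receptor chain, at 3 and 1241 (30.3 times, 10.3 to 147).

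Of 12 measured homing receptors, Ccr10, Ccr4, Ccr6, Ccr7, Cxcr3 and Cxcr4 were higher in members than in ST2+ ILC2, Ccr8, Ccr9, Ccr2 and Cxcr6 lower, and 2 neither (median log2 1.18). Ccr10, on which members were chosen, is part of this count and median. Ccr6 had 39 UMIs in members and 0 in ST2+ ILC2, at least 178-fold higher. Ccr8 was 3.56 times as high in ILC2, Ccr2 2.53 times and Cxcr6 2.55 times. Of 15 adhesion and retention genes, 6 were higher in members, with S1pr1 at 41.3 times (28.6 to 61.0), Itgb1 at 8.02 times and Itgb7 at 2.23 times the ILC2 level. Itga4, Itgav and the retention gene Cd69 were lower, Itga4 being 6.94 times (4.19 to 12.4) and Cd69 3.83 times as high in ILC2.

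Of 10 measured ILC1 and NK genes, 9 were higher in members than in ST2+ ILC2 and 0 lower (median log2 6.27), and of 9 NK receptors 8 were higher, with Klrg1 lower. Klrk1 was 65.2 times and Nkg7, a granule protein gene, 77 times the ILC2 level. Ncr1 had 27 UMIs in members and 0 in ST2+ ILC2, at least 123-fold higher, Fcer1g, an adaptor of activating receptors, 146 and 0, at least 665-fold higher, and the adaptor gene Tyrobp 122 and 2 (833 times, 226 to 6959). The UMIs of these 3 genes all lay in 16 of the 77 members, and the other 61 had none. Il18r1, whose product the sorts were gated on, was 47.1 times as high. Tcf7 was 20.3 times as high in members, Sox4 7.71 times (4.35 to 13.3) and Zbtb16 5.54 times (2.82 to 10.3), but 16 members carried much of the Sox4 and Zbtb16 counts, and without them the ratios were 1.91 and 1.51.

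All 5 measured interferon response genes were higher in members than in ST2+ ILC2 (median log2 1.37), from Bst2 at 2.16 times (1.67 to 2.77) to Ifi27l2a at 97.1 times (68.9 to 140.2). Of 12 measured immediate early and heat shock genes, 6 were lower and 6 neither (median log2 -1.06), with Egr1 6.4 times (4.79 to 8.76) and Atf3 5.55 times (4.16 to 7.57) as high in ILC2. Of 15 measured cytokines and chemokines, Il17a, Ccl5 and Xcl1 were higher in members and 10 lower (median log2 -1.88). Calca was 11.8 times (7.99 to 18.3) and Cxcl2 67.7 times (36.8 to 141) as high in ILC2.

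The gene behind the reporter gave no signal in members. Gfi1b had 0 UMIs in members, where 3 UMIs would be 5.51 UPM, and also 0 in other CD3-negative cells and in ST2+ ILC2. The GFP sequence itself was not among the counted features, so members cannot be assigned to the CD103+ GFP- or the CD103- GFP+ sort by it. Of 6 measured GFI1 family and partner genes, 0 were higher or lower against other CD3-negative cells.

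**Figure D4:**
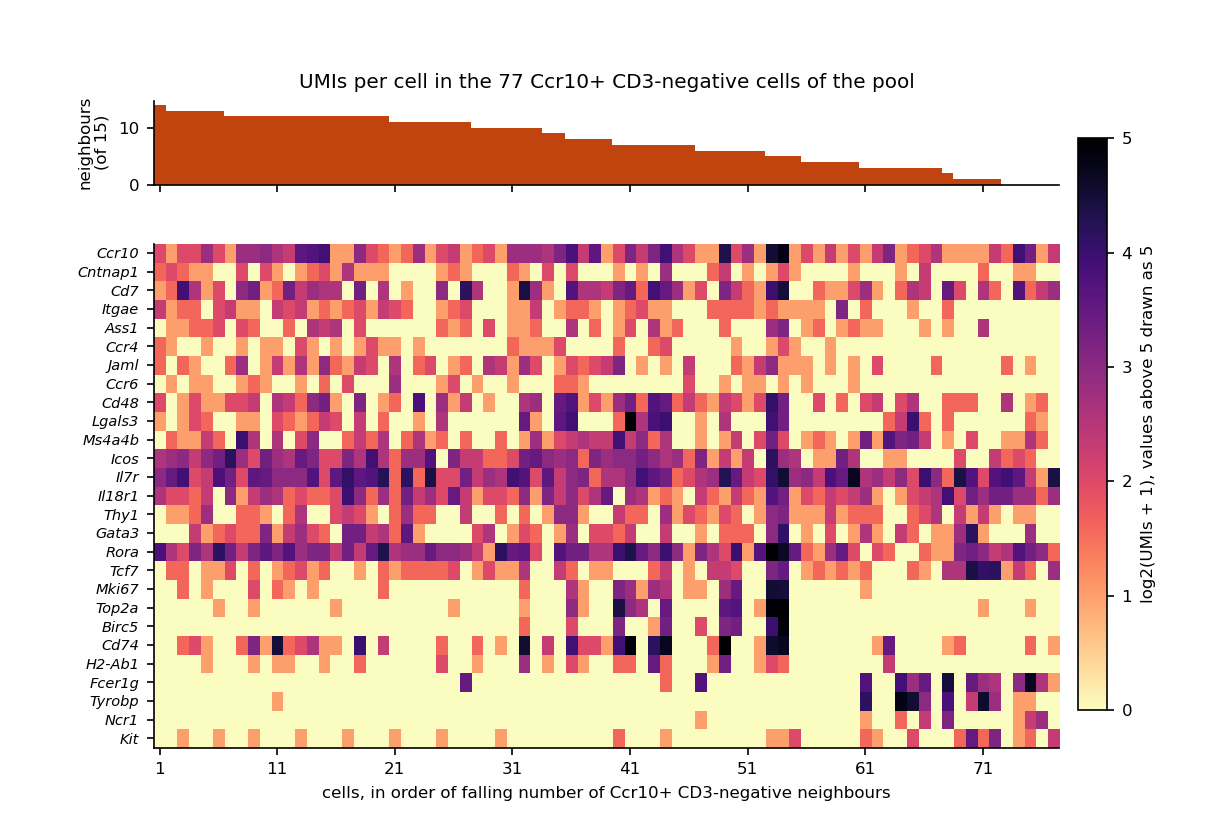
UMIs per cell, as log2(UMIs + 1), of 27 genes in the 77 pool members, 1 column per cell in falling order of the number of members among its 15 nearest cells, which the bars at the top give. Cd7 counts run across the panel, Ccr4 and Jaml counts lie mostly at the left, and Fcer1g, Tyrobp and Ncr1 counts mostly at the right.

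Members were not all alike. When each cell's 15 nearest cells were found in 30 principal components that left out the 7 rule genes, 50.3% of the neighbours of pool members were members, although members are 1.53% of all cells. Per cell the number of member neighbours was 0, 8 and 14 at the lowest, median and highest. Other CD3-negative cells supplied 33.7% of the neighbours, cells with CD3 and no Ccr10 6.58% and the IL-18R- ST2+ library 0.952%. For other CD3-negative pool cells the share of members among neighbours was 9.19%. Leaving the 5 other markers out as well gave 48.1%. Members thus lay mostly beside one another and beside other CD3-negative cells.

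At least 5 member neighbours, a limit set after seeing the values, were found for 55 members, and 22 had fewer. Itgae was detected in 78.2% of the 55 and 27.3% of the 22, Ccr4 in 47.3% and 4.55%, Cntnap1 in 58.2% and 27.3%, Jaml in 72.7% and 31.8%, and Icos in 96.4% and 50%. In the other direction Fcer1g was detected in 5.45% of the 55 and 54.5% of the 22, Ncr1 in 1.82% and 31.8%, and Kit in 23.6% and 45.5%. The neighbours were computed from the same genes, so these shares describe the grouping. A further 23 CD3-negative pool cells with no Ccr10 UMI had at least 5 member neighbours. They were shallower (median 3982 UMIs), and Ass1 was found in 52.2%, Cd7 in 30.4%, Itgae in 26.1% and Cntnap1 in 8.7% of them.

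Fcer1g or Tyrobp was detected in 16 members. Of these 50% had Ncr1, beside 0% of the other 61, 81.2% had the costimulatory receptor gene Cd28, beside 3.28%, 56.2% had Pdcd1, beside 9.84%, and 43.8% had Klrd1, the NK receptor chain CD94, beside 1.64%. Ccr6 was found in 0% of the 16 and 39.3% of the 61, Jaml in 25% and 70.5%, Itgae in 37.5% and 70.5%, and Icos in 50% and 91.8%. Cntnap1 was found in 50% and 49.2%, and Cd7 had like levels (622.7 and 639.8 UPM). These cells carried less Ccr10 (435.9 and 799.8 UPM), and 8 of the 16 had 1 Ccr10 UMI, beside 14 of the 61. Over the 77 members, per-cell values of Ccr10 and Fcer1g had a Pearson r of -0.399. These values were not raw UMI counts, so that r does not describe how the counts go together. The 16 were deeper, with a median of 7793 UMIs beside 5192, and whether some of their barcodes held 2 cells was not tested.

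A cycling program was seen in part of the members. Mki67, the proliferation antigen, had 0, 0 and 22 UMIs per cell and was detected in 22 of 77 members (28.6%, 18.9 to 40.0%), 8.7% of other CD3-negative cells, 1.82% of CD3+ pool cells and 0.728% of ST2+ ILC2. In 1 random draw of 2000 UMIs per cell the shares were 10.4% of members (4.59 to 19.4%) and 3.96% of other CD3-negative cells (1.83 to 7.39%), with intervals that overlap, and another draw can give other shares. Of 8 measured cycling genes, Mki67, Top2a, Birc5 and Ccna2 were higher in members than in other CD3-negative cells and 0 lower (median log2 0.912), and 7 of 8 were higher than in ST2+ ILC2 (median log2 4.30). The level of Mki67 was 198.3 UPM in members and 79.9 UPM in other CD3-negative cells (ratio 2.48, 1.89 to 3.25). Without barcodes over 2.5 times the median depth, which left 68 members, the ratio was 7.12, although the level in members fell. Most Mki67 UMIs of members lay in those deep barcodes. Of 108 UMIs, the members with 19048 and 19454 UMIs in total held 22 and 21. Birc5 (survivin) had a ratio of 3.35 (2.42 to 4.65), and the mitotic phosphatase gene Cdc25b 5.62 (3.12 to 10.5), or 2.48 without cells with Mki67.

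The 22 members with Mki67 all had Cd7, and 19 had Itgae, but by level Itgae was 159.7 UPM in them and 207.7 UPM in the other 55 (ratio 0.769, 0.499 to 1.17). Cd74 was detected in 77.3% of them and 38.2% of the other 55, H2-Ab1 in 63.6% and 14.5%, and Lgals3 in 81.8% and 32.7%. Their Cd74 level was 5.75 times (4.31 to 7.77) and their Il13 level 3.38 times (1.68 to 7.24) that of the others. Ccr10 differed little (ratio 1.12, 0.914 to 1.38). The median depth was 8718 UMIs with Mki67 and 5092 without, so depth moved with these shares and its part in them was not tested, and barcodes of 2 cells were not called.

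Members with and without Itgae were set apart because the pool joined a CD103+ with a CD103- sort. The 49 members with Itgae had a median of 6081 UMIs and the 28 without 5048 UMIs. Of 6107 measured genes, 357 were higher with Itgae (5.85%) and 1015 lower (16.6%), with a median log2 ratio of -0.12. On thinned counts 183 were higher and 555 lower. An Itgae count of 0 is not the absence of the protein, and the sort of each cell is unknown.

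All 8 measured cycling genes had higher summed levels in members with Itgae (median log2 2.43). The split was by detection, which moves with depth, and the part of depth in it was not tested. Mki67 had 105 and 3 UMIs (ratio 15.5, 5.17 to 76.4) and was detected in 38.8% and 10.7% of cells, or 16.3% (7.32 to 29.7%) and 3.57% (0.0904 to 18.4%) in 1 random draw of 2000 UMIs per cell, with intervals that overlap. Top2a had 150 and 2 UMIs (ratio 33.2, 9.04 to 277), and Pclaf, a replication factor, 159 and 1 (70.5, 12.5 to 2801). Of the markers, Ass1 had a ratio of 2.19 (1.27 to 4.01) and Ccr4 3.19 (1.25 to 10.4), whereas Cd7 (1.85), Cntnap1 (1.49, 0.852 to 2.73) and Ccr10 (1.16, 0.923 to 1.46) were under 2-fold. Il13 had 39 and 3 UMIs (5.76, 1.83 to 29.2) and Il9r 22 and 2 (4.88, 1.20 to 42.8). Gata3 had a ratio of 0.951 and Jaml 1.28.

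Members without Itgae had more transcript of ILC progenitor and NK genes. They also held more of the members with Fcer1g or Tyrobp, 10 of 28 beside 6 of 49. The split was not repeated without those members. Of 16 measured ILC progenitor genes, 10 were lower with Itgae and 0 higher (median log2 -1.52), and of 8 NK receptors 5 were lower and 0 higher (median log2 -1.16). Sox4 was 14.3 times (4.21 to 75.4) as high without Itgae, the AP-1 repressor gene Jdp2 13.8 times (6.49 to 33.8), Zbtb16 9.02 times (2.44 to 49.8), Tcf7 2.11 times and Pdcd1 6.54 times (3.10 to 15.1). Fcer1g was 4.2 times (2.96 to 6.03) and Ncr1 4.51 times (1.93 to 11.4) as high, and they were detected in 35.7% and 21.4% of members without Itgae, beside 10.2% and 4.08% with it. Itga4 had 1 UMI with Itgae and 14 without. Plac8 had 0 and 32 UMIs, but 1 cell held 53% of these. For Jdp2, 1 of the 16 members with Fcer1g or Tyrobp held 26 of their 52 UMIs.

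**Figure D5:**
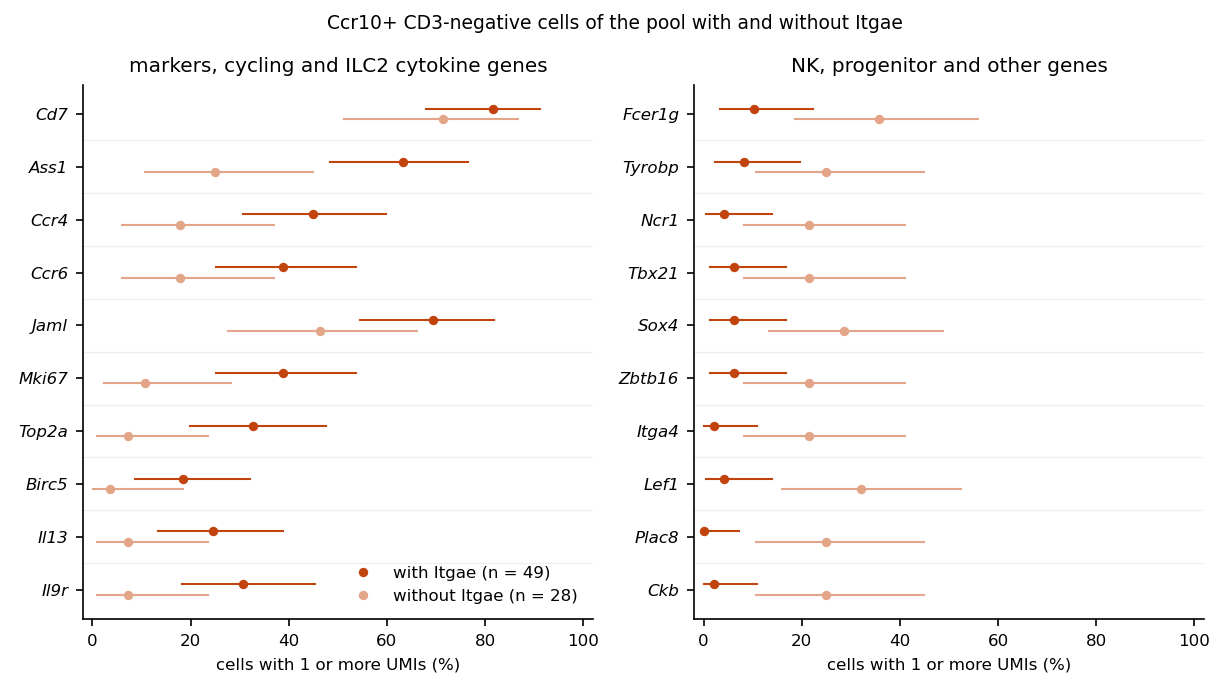
Percent of members with a UMI of each gene among the 49 members with Itgae and the 28 without, with 95% Clopper-Pearson bars. Mki67 and Ass1 were found more often with Itgae (38.8% and 63.3%) and Fcer1g and Ncr1 more often without it (35.7% and 21.4%), and the intervals of many genes overlap.

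Members set beside the CD3+ cells of their own library shared Jaml, Ccr6, Il18r1 and Itgae levels within 2-fold (ratios of 0.786, 1.07, 0.84 and 1.58). They had 10.2 times as much Cd7 (8.82 to 11.9), 4.53 times as much Ass1 (3.53 to 5.77), 4.29 times as much Ccr4 (2.92 to 6.21), 4.28 times as much Gata3 (3.61 to 5.06) and 48.8 times as much Cntnap1 (28.5 to 88.2). Il13 had 0 UMIs in the CD3+ cells. Most CD3+ pool cells carried Trdc, 856 of 1211 with at least 2 UMIs.

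The 2 members of the second library, labelled IL-18R- CD103- GFP-, differed from each other. The first had 5083 UMIs, with 1 of Ccr10, 3 of Cd7, 19 of Fcer1g, 1 of Ncr1, 6 of Gata3 and 3 of Il18r1, and none of Itgae. The second had 14648 UMIs, with 1 of Ccr10, 1 of Itgae, 8 of Cd7, 4 of Ass1, 21 of Cd74, 2 of Mki67, 5 of Jaml, 8 of Gata3 and 4 of Il18r1. Neither had a UMI of Cntnap1 or Ccr4. Each rests on 1 Ccr10 UMI, and with a limit of 2 UMIs that library had no member.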

How the data were processed

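Data of 3 libraries of sorted lung lymphocytes were analysed here, 1 per group, with groups taken from the labels. Per the labels' protocols the libraries were dual-index 10x Chromium 3' v3.1, and were read with Cell Ranger 6.0.1 on genome build mm10 per the submitters' processing notes. The sources used here do not give annotation, strand use or settings for calling cells. The deposited matrices hold counts of UMIs for 32285 features and 1688, 1903 and 1760 barcodes, not normalised, per the file headers.

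Counts were summed per class and divided by the class total (UPM). No test was run. Doublets were not called; barcodes over 2.5 times the median depth were left out as an alternative. No ambient RNA was removed. Neighbours used scanpy 1.11.5 (2000 variable genes, 30 components). Code was tested on simulated data. Members, markers and the 27 gene lists were chosen with earlier results of these data known. Named genes were the markers, the rule genes, per comparison and direction the 12 called genes of largest ratio with at least 50 UPM and 10% of cells in the higher class (6 for the Itgae split; predicted genes left out), and up to 4 per list; other genes named were chosen after their values were seen. Loci are from GENCODE M21 on GRCm38.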

Additional observations from a re-analysis of the deposited data

How the results depend on the processing

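The share of pool cells that were members was 3.31% with at least 2 Ccr10 UMIs and 3.13% when cells with Cd3g, Trac or Trdc were also left out (52 members; chosen after seeing the data). Also requiring no T cell receptor constant gene left 1 member, 0.0603% of the pool, so it gave no comparison; Trbc1 was found in 69 and Trbc2 in 59 of 77 members. The second library had 0% under both the limit of 2 UMIs and that requirement. The share of neighbours that were members was 45.2% with 30 neighbours and 47.2% with 15 components.

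Against other CD3-negative cells, 91 genes were higher and 195 lower with a minimum of 50 UPM, 1656 and 1147 with no minimum (59.1% higher among called genes), and 515 higher on thinned counts (51.1%, beside 28.5%). Against ST2+ ILC2, 659 were higher under median-of-ratios scaling, 509 higher and 246 lower with a minimum of 50 UPM, and 4577 and 786 with no minimum (85.3% higher among called). For the Itgae split, 183 were higher and 555 lower on thinned counts, and 182 and 404 when the counting interval also had to exclude 1 (chosen after seeing the data).

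Named genes that turned direction, on the log2 scale, were Ccr9 (0.46 without Cd3g, Trac and Trdc cells), Il1rl1 (0.14, thinned), Ighd (0.85) and Id3 (1.27; both against the narrowed comparison cells) and Pclaf (-0.24 without cells with Mki67) against other CD3-negative cells, Ckb (-0.36, thinned) and Jdp2 (-1.46 without members with Fcer1g or Tyrobp) against ST2+ ILC2, and Ccne2 (-0.07) and Jun (0.041; both thinned) in the Itgae split. Ccr9 and Il1rl1 had no UMI in members, so their turns reflect the floor of 3 UMIs over fewer cells or reads. The value of Id3 equals that of the floor in both classes (5.51 and 2.29 UPM), so no direction can be read from it. The Mki67 alternative removes cycling cells by construction. For the others the cause was not tested. No paired analysis was possible because each group has 1 library and the labels give no replicate numbers.

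No difference was checked in a replicate. Members were few, so a gene with under 3 UMIs in them (5.51 UPM) could not be told from 0.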
